A study of Mus musculus with 6 samples.

Results

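The miRNAs described here come from the X-linked cluster that runs from miR-743a through miR-880 and miR-871 to miR-465 in the mouse, a row of tandem precursors on the X chromosome. Members were chosen by name: every row of the deposited table for miR-743a, miR-743b, miR-742, miR-883a, miR-883b, miR-471, miR-741, miR-463, miR-880, miR-878, miR-881, miR-871, miR-470, miR-465a, miR-465b, miR-465c or miR-465d. Of these 17 names, 13 had a row, and miR-742, miR-883a, miR-883b and miR-465d had none. The rule matched 19 of the 1300 rows. miR-465b-3p and miR-465c-3p have the same mature sequence and were summed, which left 18 members. Other rows were summed in the same way where their names had identical RefSeq mature sequences, which left 1297 rows. A RefSeq sequence was found for 867 of the 1025 named rows, so identical sequences among the others would have stayed separate.

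A mature miRNA is cut from a hairpin precursor, and either arm of the hairpin (5p or 3p) can be kept and loaded into an Argonaute protein. Bases 2 to 8 of the mature strand, the seed, pair with target mRNAs and largely decide which are repressed. The cluster belongs to a fast-evolving, rodent-expanded family of X-linked miRNAs that arose by repeated tandem duplication. Its members are best known from the testis, where several stay expressed in spermatocytes while the sex chromosomes are otherwise silenced.

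Small RNA was sequenced from whole ovaries of female C57BL/6J mice, aged 8 weeks in the design text, in 6 libraries. For 3 libraries the mice were housed at the local altitude of 1588 m and 83.56 kPa (normal pressure), and for the other 3 in a decompression chamber at 43.12 kPa that simulates 6500 m (hypobaric hypoxia). The labels of both groups name oral levonorgestrel and ethinylestradiol, used to synchronize the cycle, while doses (0.1 and 0.02 mg/kg) are stated only for the hypobaric mice. The labels name 15 mice in each group and do not say whether 1 library holds 1 mouse or several, so the tests measure the spread between libraries, which may be partly technical. Exposure is 15 days in the design text, whereas the sample descriptions run from 15 to 17 days by replicate number in both groups and give 5000 m for the chamber. The treatment labels also give 12 to 14 dark hours by replicate number for normal pressure and 12 for the chamber. The cells of the ovary were not separated, and in such bulk samples fewer cells of a type and less RNA per cell cannot be told apart.

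All 19 precursors of these names in RefSeq lie on the minus strand of chromosome X between 66776757 and 66839125 (GRCm38), a span of 62.4 kb. No precursor overlaps another gene in GENCODE vM21. Apart from miRNA genes, the only annotated gene that lies wholly in the span is the pseudogene Gm14681. Slitrk2 ends 115 kb before the cluster. Fmr1 starts 1839 kb beyond it. All 19 matched rows had a mature sequence in RefSeq (GRCm38.p6). The sequences of the members with a mean of at least 1 read per 1000000 reads (RPM) are shown first, because every test below rests on them; capitals mark the seed.
miR-470-5p: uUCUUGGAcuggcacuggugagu
miR-741-3p: uGAGAGAUgccauucuauguaga
miR-871-5p: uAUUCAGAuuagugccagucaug
miR-871-3p: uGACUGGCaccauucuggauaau
miR-471-3p: uGAAAGGUgccauacuauguau
miR-465b-3p and miR-465c-3p: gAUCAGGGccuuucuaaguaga
miR-465c-5p: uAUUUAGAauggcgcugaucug

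These sequences carry different seeds, so abundant members of the cluster do not form 1 seed family. Over the 19 matched rows there were 14 distinct seeds. Seeds were shared within the miR-465 5p arms, within the miR-465 3p arms, between miR-743a-3p and miR-743b-3p, and across precursors by miR-871-5p and miR-743a-5p. The precursors of the last pair lie 33.7 kb apart. The miR-743 arms are printed to show both shared seeds, miR-743a-5p for comparison with miR-871-5p above.
miR-743a-3p: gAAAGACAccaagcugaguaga
miR-743b-3p: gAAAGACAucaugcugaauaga
miR-743a-5p: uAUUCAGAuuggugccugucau

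Arms of the cluster also shared letters outside the seeds and at their first base. Of the 17 5p arms of these names in RefSeq, 16 begin with U, against 42.2% of all 697 mouse 5p arms in that table. Of the 17 3p arms, 8 begin with U, against 42.0% of 709. The letters GUAGA and CACCA were searched on the mature strand alone after the sequences were seen. GUAGA occurs in 7 of the 17 3p arms, among them the identical miR-465a-3p, miR-465b-3p and miR-465c-3p, and in 1.97% of all 3p arms. CACCA, which begins in the last bases of the seed, occurs in 5 of the 17 and in 2.82% of all. Tandem copies are not independent sequences, so these shares describe the family and were not tested.

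The cluster was a minor part of the ovarian miRNA pool. Summed over the 18 members it stood at 20.1 RPM in normal-pressure library 1, 25.6 in library 2 and 24.5 in library 3. Hypobaric libraries 1 to 3 held 29.5, 32.7 and 26.8 RPM; the order of libraries is the same throughout. These sums rest on 422 to 686 reads per library out of 6852198 to 8701696 miRNA reads. Group means were 23.4 ± 2.89 RPM for normal pressure and 29.7 ± 2.96 RPM for the hypobaric group (SD, n = 3), a ratio of 1.27, and the groups did not overlap. Per 1000000 miRNA reads the sums were 69.8 ± 14.4 and 76.0 ± 8.65 (SD, n = 3), a ratio of 1.09, and the groups overlapped. The reads of all rows, predicted miRNAs included, were also set against the library total that the RPM values imply. This share moved with the groups, at 33.9% ± 3.14 and 39.1% ± 1.73 (SD, n = 3). What the implied total counts is not stated. No test was made on a sum over chosen members.

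A few arms made up most of this level. miR-470-5p, miR-741-3p, miR-871-5p and the summed miR-465b-3p and miR-465c-3p together held 65.9% to 75.4% of the cluster's RPM in each library. miR-470-5p was highest, with a mean of 6.82 RPM over the 6 libraries, rank 285 of the 1297 rows. miR-465c-5p, the lowest member above 1 RPM, had a mean of 1.18 RPM and rank 446. Mature miRNAs have nearly the same length, so RPM levels are set side by side without a length correction. Differences between sequences in ligation and amplification were not measured. Levels of different miRNAs or arms, here and below, therefore compare reads and may not follow the number of molecules. In the order of mean level, miR-470-5p lay above miR-741-3p in 6 of 6 libraries, and miR-471-3p lay above miR-465c-5p in 6 of 6. The neighbours in between changed places: miR-741-3p lay above miR-871-5p in 3 of 6 libraries, and so did miR-871-5p above the summed miR-465 3p arm. The ranges over libraries overlapped for every pair of neighbours in the order.

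**Figure D1:**
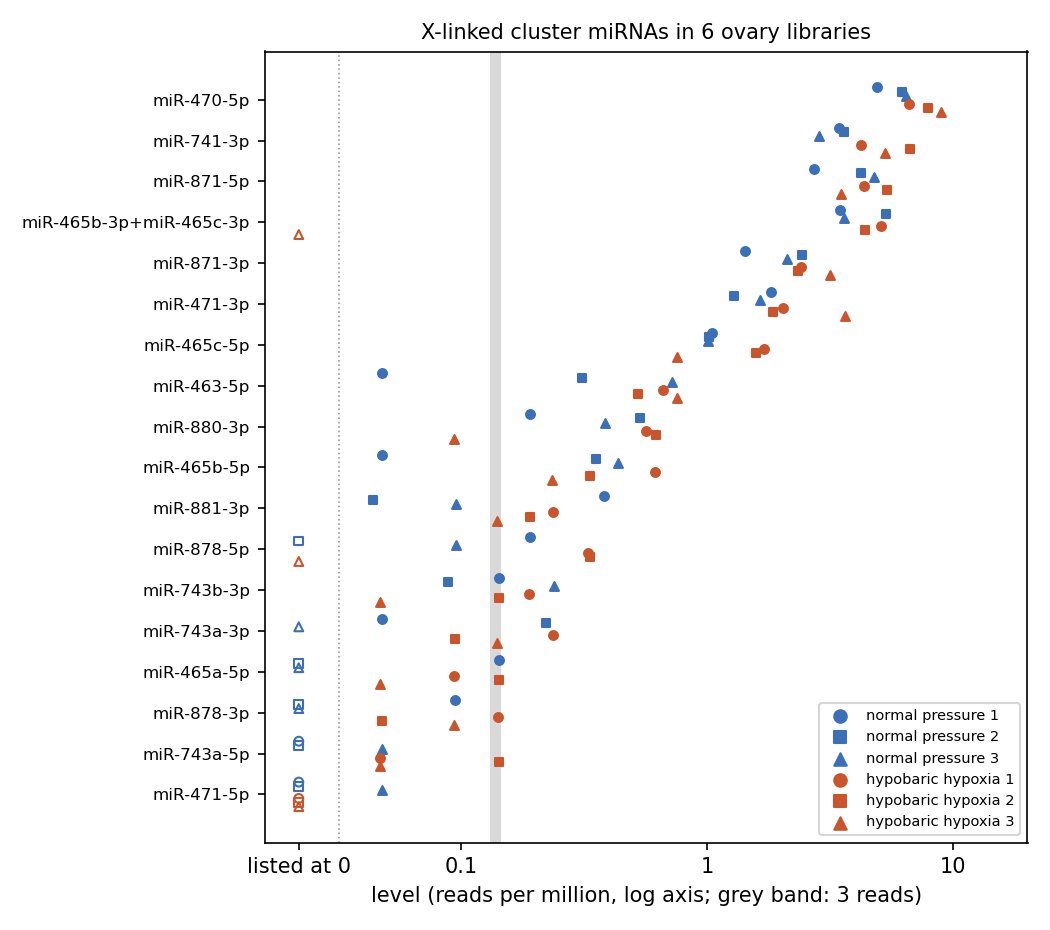
Level of each of the 18 cluster members (RPM, log axis) in the 6 ovary libraries, ordered by mean; blue is normal pressure, orange hypobaric hypoxia, open symbols mark a member listed at 0, and the grey band is the level of 3 reads. The 7 upper members lie near or above 1 RPM, apart from the miR-465 3p arm listed at 0 in hypobaric library 3, while all lower members lie below 1 RPM.

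The abundant arms were not spread evenly along the cluster. From the first precursor, Mir743, the levels stayed low over the miR-743 pair, were higher at Mir471 and Mir741, 15.8 and 20.0 kb further on, and low again from Mir463 to Mir881. They were highest at Mir871 and Mir470, 33.7 and 37.2 kb from the start. The 2 adjoining precursors gave a summed mean of 6.46 RPM for both miR-871 arms and 6.82 RPM for miR-470-5p. At the far end lie the miR-465 copies, whose 3p arm has 1 sequence for 4 precursors in RefSeq, so its level cannot be assigned to a single copy.

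**Figure D2:**
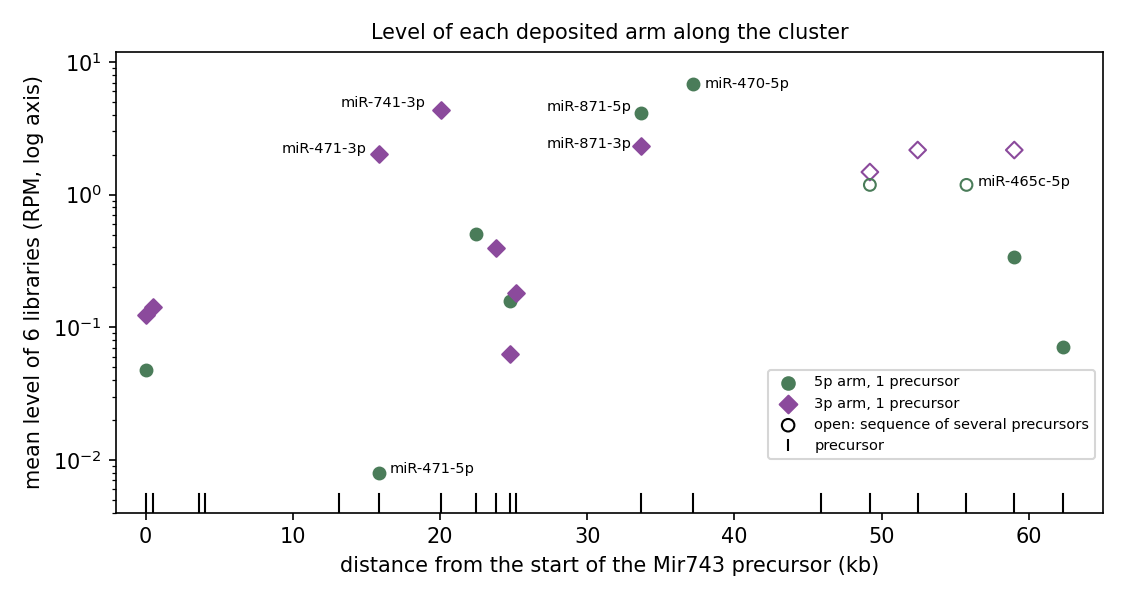
Mean level over 6 libraries (RPM, log axis) of each deposited arm against the distance of its precursor from the start of Mir743 (kb); circles are 5p arms, diamonds 3p arms, open symbols sequences shared by several precursors, and ticks all 19 precursors. Higher levels sit at Mir471 and Mir741, at Mir871 and Mir470, and in the miR-465 copies, with low levels between 22.5 and 25.2 kb.

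The comparison of the groups asks whether ovarian levels of these miRNAs differ after exposure to low-pressure hypoxia. It was made with limma on log2(RPM + 1) over all 472 rows with a mean of at least 1 RPM, and an adjusted p under 0.05 (Benjamini-Hochberg) counted as a call. Of the 18 members 7 reached 1 RPM and were tested. None of the 7 was called, and 1 had an unadjusted p under 0.05. Over the whole table limma called 5.3% of the tested miRNAs, 18 higher and 7 lower, and 20.8% had an unadjusted p under 0.05. The count tests called 0 of the 7 as well, with edgeR calling 5.3% and DESeq2 12.7% of all tested. Neither gave a member an unadjusted p under 0.05. DESeq2 gave miR-465c-5p no adjusted p (unadjusted p = 0.668 in DESeq2), and a row without one counted as not called. With values per 1000000 miRNA reads the calls over the table were 12 higher and 18 lower, with median-of-ratios or TMM scaling 14 and 16, with edgeR 11 and 14, and with DESeq2 31 and 29.

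The log2 changes of the 7 ran from -0.66 to 0.56 with a median of 0.29, against a median of 0.15 over all tested miRNAs. Changes were positive in 6 of the 7, as in 65.7% of all tested miRNAs, and 5 of the 7 lay above the median of all. With limma after other scalings the median of all was -0.02 to 0.04, and that of the 7 was 0.18 to 0.19. A list chosen with earlier results of these data known allows no more than this description.

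miR-741-3p had the largest positive change and the smallest p of the 7. The normal-pressure libraries held 3.43, 3.59 and 2.84 RPM, and the hypobaric ones 4.20, 6.67 and 5.27 RPM. Every hypobaric library lay above every normal-pressure library. Group means were 3.29 ± 0.398 and 5.38 ± 1.24 RPM (SD, n = 3). In limma the log2 change was 0.56 ± 0.22 (SE), with adjusted p = 0.182. This was the member whose unadjusted p lay under 0.05, and it lay above 0.05 after each other scaling tried and in both count tests. Per 1000000 miRNA reads the groups overlapped, at 8.10 to 11.8 and 10.2 to 17.6, and the log2 change was 0.45 with adjusted p = 0.366 in limma. Its precursor is printed to place the arm measured, with both annotated arms in capitals (chrX:66796805-66796875, minus strand); miR-741-5p had no row.
Mir741: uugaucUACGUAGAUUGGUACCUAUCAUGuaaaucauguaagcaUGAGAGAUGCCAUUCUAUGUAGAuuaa

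miR-470-5p is known from differentiating mouse embryonic stem cells, where miR-470 targets the coding sequence of pluripotency factor mRNAs. It reached 4.91, 6.16 and 6.44 RPM in the normal-pressure libraries, and 6.61, 7.91 and 8.90 RPM in the hypobaric ones. The groups did not overlap, although hypobaric library 1 lay only just above normal-pressure library 3. The log2 change was 0.36 ± 0.21 (SE), with adjusted p = 0.344 in limma.

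miR-471, described in Sertoli cells of the mouse testis, appeared almost wholly as its 3p arm. The level of miR-471-3p was 1.81, 1.29 and 1.64 RPM in the normal-pressure libraries, against 2.03, 1.86 and 3.63 RPM in the hypobaric ones. The groups did not overlap, but hypobaric library 2 lay only just above normal-pressure library 1, and hypobaric library 3 stood well above the other 5. The log2 change was 0.41 ± 0.24 (SE), with adjusted p = 0.339 in limma. Without hypobaric library 3 it was 0.20. The 5p arm had 1 read, in normal-pressure library 3, against 260 reads of the 3p arm over all libraries. That is 0.383% of the reads of both arms (95% exact Clopper-Pearson interval 0.00970% to 2.12%, counting error only).

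In all, 3 of the 7 tested members had groups that did not overlap, all higher under hypobaric hypoxia, beside 26.5% of all tested miRNAs in either direction and 19.1% with the hypobaric group higher. Per 1000000 miRNA reads the groups overlapped in each of the 7, while the share over all tested miRNAs was 26.5% on that scale.

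Both arms of miR-871 reached 1 RPM, as did miR-465c-5p and the shared miR-465 3p sequence. The miR-871 hairpin is printed because both arms were tested, with the arms in capitals (chrX:66810428-66810504, minus strand).
Mir871: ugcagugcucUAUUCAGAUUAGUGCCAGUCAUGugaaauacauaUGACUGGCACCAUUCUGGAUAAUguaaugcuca
Its 5p arm, miR-871-5p, was at 2.72, 4.21 and 4.76 RPM without hypoxia and at 4.34, 5.39 and 3.48 RPM with it, and the groups overlapped. Its log2 change was 0.15 ± 0.24 (SE), adjusted p = 0.738 in limma, and its sign changed per 1000000 miRNA reads, with edgeR and with DESeq2. For miR-871-3p the levels were 1.43, 2.44 and 2.12 RPM and 2.41, 2.34 and 3.15 RPM, also overlapping, and the log2 change of 0.29 ± 0.22 (SE) had adjusted p = 0.475 in limma. It was 0.14 without normal-pressure library 1 and 0.19 without hypobaric library 3.

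The 5p arm held 64.2% of the miR-871 reads, 530 against 296 on the 3p arm (95% exact Clopper-Pearson interval 60.8% to 67.4%, counting error only). By library its share was 65.5%, 63.3% and 69.2% at normal pressure and 64.3%, 69.8% and 52.5% under hypobaric hypoxia. Hypobaric library 3 had the lowest share, and the other 5 lay close together. The mean share was 66.0% ± 2.98 at normal pressure and 62.2% ± 8.83 under hypobaric hypoxia (SD, n = 3), a gap smaller than the hypobaric spread. The difference, hypobaric minus normal pressure, was -3.84 percentage points, and 1.02 without hypobaric library 3.

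**Figure D3:**
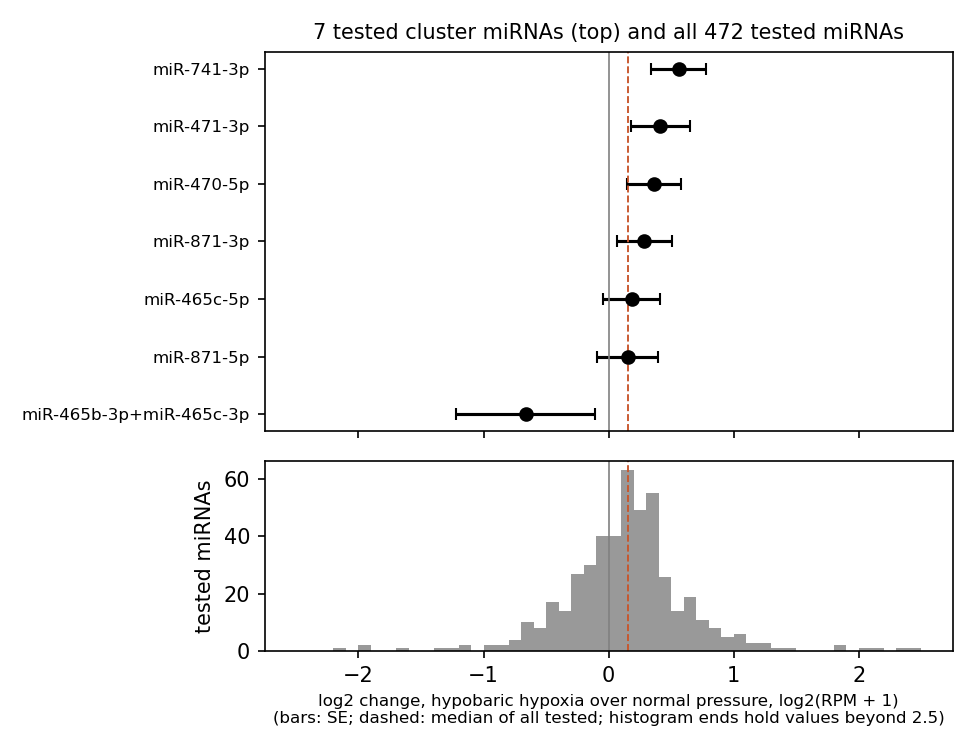
Upper part: log2 change (hypobaric hypoxia over normal pressure, on log2(RPM + 1)) of the 7 tested members, with SE bars; lower part: number of all 472 tested miRNAs at each log2 change, with the dashed line at their median of 0.15. Of the 7 points 6 lie above 0 and within the bulk of all tested miRNAs, and the summed miR-465 3p arm at -0.66 has the widest bar.

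The miR-465 copies show how names and sequences diverge in the table. miR-465b-3p, miR-465c-3p and miR-465a-3p have 1 mature sequence, and miR-465a-3p had no row here. Under the name miR-465b-3p the table lists 3.48, 0 and 0.048 RPM for the normal-pressure libraries, and 5.10, 4.39 and 0 RPM for the hypobaric ones. Under the name miR-465c-3p it lists 0, 5.32 and 3.56 RPM, and 0 in all 3 hypobaric libraries. Where reads were listed, each library held all of them, or all but 1 read, under a single name. Summed, the sequence came to 3.48, 5.32 and 3.61 RPM, and to 5.10, 4.39 and 0 RPM in the hypobaric libraries.

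Hypobaric library 3 was thus listed at 0, where 3 reads would be 0.141 RPM, while the other 5 libraries had 73 to 120 reads. Whether its reads were counted under another name of the same sequence was not tested. The log2 change of the sum was -0.66 ± 0.56 (SE), adjusted p = 0.517 in limma, and without hypobaric library 3 it was 0.18 ± 0.24 (SE), adjusted p = 0.666. Under separate names miR-465b-3p had a log2 change of 0.94 and miR-465c-3p one of -1.62, with adjusted p = 0.505 and 0.149 in limma. Both changes depend on the pseudocount. miR-465c-3p is listed at 0 in every hypobaric library, and miR-465b-3p at 0 in normal-pressure library 2 and hypobaric library 3. Without this sequence the summed level of the cluster was 19.3 ± 2.29 RPM at normal pressure against 26.5 ± 1.98 RPM under hypobaric hypoxia (SD, n = 3). The ratio was 1.38, against 1.27 with the sequence included. Leaving it out was not planned and was done after the data were seen. This reduced sum was taken in RPM only. Scaled to miRNA reads, the groups overlapped for the full sum.

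The 5p arms of the same copies differ in sequence and had their own rows. They are printed for comparison, with the seed in capitals, which all 3 share.
miR-465a-5p: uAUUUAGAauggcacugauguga
miR-465b-5p: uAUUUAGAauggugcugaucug
miR-465c-5p: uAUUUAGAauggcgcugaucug
Counted from 1 at the 5′ end of miR-465c-5p, miR-465b-5p differs by C13U, and miR-465a-5p by G14A and C20G with 1 more base at its end. At such distances reads can be assigned to a neighbour's name, so the separate levels are uncertain. For miR-465c-5p the levels were 1.05, 1.02 and 1.01 RPM in the normal-pressure libraries, and 1.70, 1.57 and 0.753 RPM in the hypobaric ones. The hypobaric libraries lay on either side of the narrow normal-pressure range, with library 3 lowest of all 6. That range is narrower than counting allows for: its SD was 0.0197 RPM, while the reads alone would give 0.219 RPM. It is therefore no measure of how stable the level is. The log2 change was 0.18 ± 0.22 (SE), with adjusted p = 0.648 in limma. It was 0.068 without hypobaric library 1, 0.10 without hypobaric library 2 and 0.38 without hypobaric library 3. The 3 5p rows summed were at 1.24, 1.38 and 1.44 RPM and at 2.41, 2.05 and 1.04 RPM, so library 3 was lowest on both arms of miR-465, but not at 0 on the 5p arm.

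**Figure D4:**
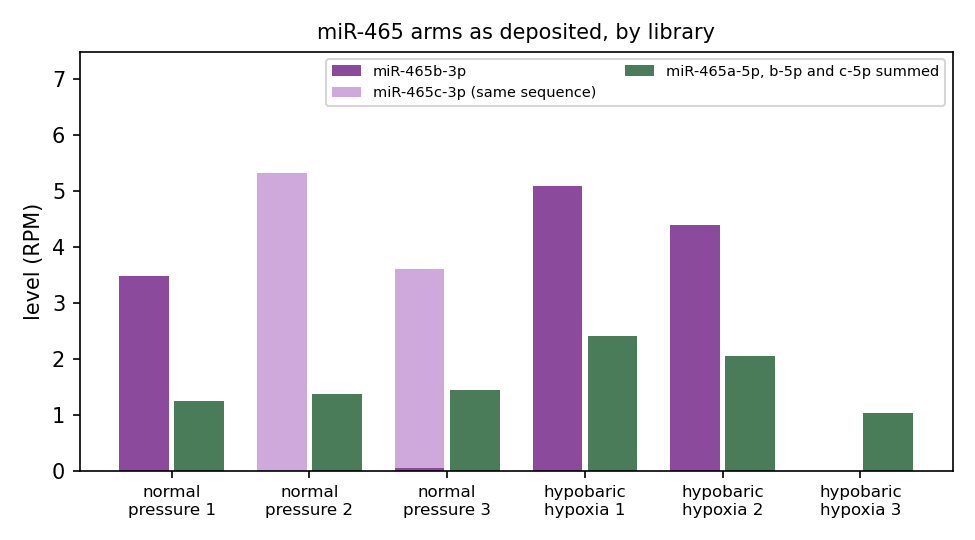
Level (RPM) of the miR-465 arms as deposited in each library: purple bars stack the 2 names of 1 shared 3p sequence, miR-465b-3p (dark) and miR-465c-3p (light), and green bars sum the 5p rows of miR-465a, b and c. The name changes between libraries, and hypobaric library 3 has no 3p bar but a 5p sum of 1.04 RPM.

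The other 11 members did not reach 1 RPM and were not tested. Their means ran from 0.008 RPM for miR-471-5p to 0.503 RPM for miR-463-5p, on 1 to 64 reads in all 6 libraries together, and 5 of the 11 had a read in every library. For miR-463-5p the levels were 0.048, 0.310 and 0.721 RPM in the normal-pressure libraries, and 0.661, 0.524 and 0.753 RPM in the hypobaric ones. miR-880-3p, next in level, was at 0.191, 0.532 and 0.385 RPM and at 0.566, 0.620 and 0.094 RPM. In both the groups overlapped, as in all 11. miR-465b-5p had a mean of 0.336 RPM over the 6 libraries and 43 reads, miR-881-3p 0.182 RPM and 23 reads, and miR-465a-5p 0.0712 RPM and 9 reads. The means of miR-743b-3p and miR-743a-3p were 0.142 and 0.124 RPM. The mean was higher under hypobaric hypoxia in 9 of the 11 and lower in 2, miR-743b-3p and miR-471-5p. At these levels a single read moves the value, and the share over all rows below 1 RPM was not counted. On the arms of miR-878 there were 20 5p and 8 3p reads, and on those of miR-743a 6 and 16.

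The reads alone would give miR-741-3p an SD of 0.392 RPM in the normal-pressure group and 0.504 RPM in the hypobaric group. The SDs measured over 3 libraries were 0.398 and 1.24 RPM, and no test was made of the excess.

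Further along the X chromosome, 1149 kb from the cluster and also between Slitrk2 and Fmr1, lie Mir201 and Mir547. These neighbours had more reads than the cluster in every library: their summed arms stood at 4.34 to 7.41 times the cluster's sum. Most of that was miR-201-5p, with 140.9, 120 and 98.9 RPM in the normal-pressure libraries, and 158, 140 and 149 RPM in the hypobaric ones. miR-509, from the same region, had no row. Of the 4 rows, 3 were tested and none was called, with a median log2 change of 0.33; miR-201-5p had adjusted p = 0.380 and miR-547-3p adjusted p = 0.354 in limma.

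Lists of miRNAs drawn up for cells of the ovary and its surroundings place these levels. miR-202-5p, enriched in gonads, was at 933 to 2955 RPM over the 6 libraries and, with miR-202-3p, rose under hypobaric hypoxia. Of 8 tested rows in the ovarian list (miR-202, miR-383, miR-224, miR-132 and miR-212) 2 rose and 4 fell, beside 5.3% of all tested miRNAs called. Both rises were arms of miR-202, and all 4 falls were arms of miR-132 or miR-212. The falls thus describe those miRNAs and not a cell type. Embryonic and germ-cell miRNAs of the miR-290 to miR-295 and miR-302 clusters, led by miR-292a-3p and miR-294-3p, had 13 rows, none of which reached 1 RPM, and summed to 1.82 to 2.69 RPM at normal pressure and 1.84 to 3.86 RPM under hypobaric hypoxia. Which ovarian cells held the cluster's miRNAs was not resolved in these whole-organ libraries. Red-cell miRNAs, led by miR-451a and miR-486a-5p, rose in 5 of 6 tested rows, with sums of 726 to 1577 RPM at normal pressure and 9459 to 15085 RPM under hypobaric hypoxia. Their part in the cluster's levels was not tested. None of the 6 ciliated (miR-34b-3p and miR-34c-3p first), 9 epithelial (miR-429-3p, miR-200c-3p) or 6 leukocyte rows tested (miR-150-5p, miR-223-3p) was called, with median log2 changes of 0.056, -0.11 and 0.028. Within these lists members differed. The ciliated-cell miRNA miR-449a-5p, chosen after its values were seen, was at 477, 481 and 448.9 RPM in the normal-pressure libraries and 269.9, 153 and 318 RPM in the hypobaric ones, without overlap. Its log2 change was -0.99 (adjusted p = 0.0552 in limma), and that of miR-449c-5p was -0.72 (adjusted p = 0.234 in limma). The lymphocyte miRNA miR-150-5p was at 436, 557 and 636 RPM and at 841, 814 and 973 RPM, again without overlap. Its log2 change was 0.70 (adjusted p = 0.0656 in limma), while miR-223-3p, abundant in myeloid cells, had one of -0.33 (adjusted p = 0.382 in limma). Their sums at normal pressure and under hypobaric hypoxia were 2484 to 2687 and 1994 to 2785 RPM for ciliated cells, 2527 to 4042 and 3227 to 3746 RPM for epithelium, and 586 to 809 and 938 to 1081 RPM for leukocytes.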

How the data were processed

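Per the labels' protocols, total RNA was column-purified, small RNA was gel-selected, ligated, amplified and read as single-end reads on a DNBSEQ instrument. Bowtie2, DESeq2 and GRCm38.p6 are named in the submitters' processing notes without a role. The treatment of reads that match several miRNAs is likewise not given in the sources used here. Called TPM in the deposited table, the unit is in fact RPM, reads scaled by the authors to 1 total for each library: with a tolerance of 0.0005 RPM, 100% of values in each library are whole reads of 1 implied total, 20800777 to 22559146. One read is worth 0.0443 to 0.0481 RPM. Reads carry no molecular identifiers, so intervals and floors cover counting error only. No libraries of a group agree within sampling noise (chi-square over degrees of freedom at least 119). The members and lists were chosen with earlier results of these data known.

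Groups and replicate numbers came from the titles. Rows with identical RefSeq mature sequence (867 of 1025 named rows matched by name) were summed, which joined 6 rows into 3. The main test was limma 3.58.1 in R 4.3.3 on log2(RPM + 1) with an intensity trend, two-sided, over rows with a mean of at least 1 RPM, without a replicate block; such changes understate those of low miRNAs. Recovered reads entered edgeR 4.0.16 (quasi-likelihood) and DESeq2 1.42.0 as alternatives. Other alternatives were names as deposited, sums by stem and arm, pseudocounts of 0.1, 0.5 and 5, other filters and scalings, named miRNAs only, the replicate block and leaving out libraries. Other steps used Python 3.11.15, pandas 2.3.3, scipy 1.17.1 and matplotlib 3.10.9. The fits were run on simulated counts with planted changes larger than those of the members. That run does not show whether changes of the members' size could be called. Values by library were given for members of at least 1 RPM, and ranges and counts for the rest; other names were chosen after their values were seen, and the 2 most abundant members of each comparison list were named.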

Additional observations from a re-analysis of the deposited data

How the results depend on the processing

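None of the cluster's members was called in any of the 22 alternatives in which at least 1 was tested. The smallest adjusted p among them was between 0.149 and 0.434. With a mean of at least 10 RPM no member was left to test. Replicate numbers are shared by the groups, and libraries of the same number had correlations of deviations of 0.099, -0.25 and -0.011. With 3 libraries in each group these cannot tell whether the numbers pair the libraries. With the number as a block 0 members and 29 miRNAs were called. Over all miRNAs 25 calls became 60 with DESeq2, 15 to 37 when 1 library was left out (15 without hypobaric library 2), and 47 without normal-pressure library 2 and hypobaric library 3, a pair chosen after seeing the data for its low second principal component. The causes were not tested.

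The log2 change of miR-871-5p was -0.015 per 1000000 miRNA reads, -0.016 with edgeR, -0.0026 with DESeq2 and -0.035 to 0.28 when 1 library was left out. That of the summed miR-465b-3p and miR-465c-3p was -1.13 to 0.18 when 1 library was left out, positive only without hypobaric library 3, and 0.34 without the pair above. The other 5 tested members stayed positive in each alternative. The log2 ratio of the summed cluster, 0.34, was 0.12 per 1000000 miRNA reads and 0.25 to 0.41 with 1 library left out. The 11 untested members rest on 1 to 64 reads over all libraries, and no difference was tested there.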
